A study of Homo sapiens with 4 samples.

Results

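The E2F family genes are the 8 human genes E2F1 to E2F8, taken by name from the 19974 protein-coding genes on chromosomes 1 to 22 and X of the RefSeq table. The family was chosen by the peak calls near the repressor gene E2F7, where 4 of 8 regions were called in the FOXD2 libraries alone. Every difference between the groups given here is therefore a description with no test. The cells were HCT116, an established human colorectal carcinoma line, and open chromatin had been mapped with ATAC-seq, which uses Tn5 transposase to insert sequencing adapters where DNA is accessible. Lentivirus had delivered pSin carrying the full-length FOXD2 coding sequence, a forkhead transcription factor, to the FOXD2 cells (2 libraries, replicates 1 and 2). The Control cells had received the empty pSin vector (2 libraries, replicates 1 and 2). Both groups are puromycin-selected stable transductants grown in 5 µg/ml puromycin, and 50000 cells were lysed per preparation. The labels do not say whether the cells were pools or clones, nor whether replicates are separate cultures, and their spread may be technical.

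E2F proteins bind the promoters of genes needed for S phase and link the retinoblastoma pocket proteins to the cell cycle. E2F1, E2F2 and E2F3 are known as activators, which bind DNA with a DP partner and are held in check by RB1 until cyclin-dependent kinases release them. E2F4 and E2F5 are repressors that work with the pocket proteins RBL1 and RBL2, E2F6 is a repressor that acts with Polycomb proteins without pocket proteins, and the atypical E2F7 and E2F8 repress without a DP partner. In colorectal carcinoma cells, as in other dividing cells, these genes drive and limit the G1 to S transition.

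The upstream sequences of the members are shown because their start sites lay in open chromatin in all 4 libraries and because the activators and E2F7 differ in them. RefSeq's promoter table (GRCh38.p14, the build called hg38 in the labels) held 6 of the 8 members. The 250 bases that end just before the annotated start are given 5′ to 3′. Capitals mark matches to the E2F consensus in the 8 forms TTTCCCGC, TTTCCCGG, TTTCGCGC, TTTCGCGG, TTTGCCGC, TTTGCCGG, TTTGGCGC and TTTGGCGG, searched on both strands.
E2F1, chr20:33686386-33686635, minus strand: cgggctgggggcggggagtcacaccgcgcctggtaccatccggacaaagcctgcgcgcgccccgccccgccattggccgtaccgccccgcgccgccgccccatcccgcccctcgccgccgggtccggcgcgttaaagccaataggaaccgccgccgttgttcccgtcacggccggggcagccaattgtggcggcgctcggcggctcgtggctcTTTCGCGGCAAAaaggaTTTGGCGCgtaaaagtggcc
E2F2, chr1:23531234-23531483, minus strand: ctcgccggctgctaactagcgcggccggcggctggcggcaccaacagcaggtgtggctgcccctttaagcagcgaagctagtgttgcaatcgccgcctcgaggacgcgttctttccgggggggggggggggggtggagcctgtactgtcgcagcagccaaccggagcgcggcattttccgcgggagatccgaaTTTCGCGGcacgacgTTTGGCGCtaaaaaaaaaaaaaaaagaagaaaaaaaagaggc
E2F3, chr6:20401629-20401878, plus strand: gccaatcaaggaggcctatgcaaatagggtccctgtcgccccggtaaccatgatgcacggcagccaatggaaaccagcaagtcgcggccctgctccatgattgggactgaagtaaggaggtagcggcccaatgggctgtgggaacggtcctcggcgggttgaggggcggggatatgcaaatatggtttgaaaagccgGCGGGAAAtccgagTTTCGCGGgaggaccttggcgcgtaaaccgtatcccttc
E2F4, chr16:67191905-67192154, plus strand: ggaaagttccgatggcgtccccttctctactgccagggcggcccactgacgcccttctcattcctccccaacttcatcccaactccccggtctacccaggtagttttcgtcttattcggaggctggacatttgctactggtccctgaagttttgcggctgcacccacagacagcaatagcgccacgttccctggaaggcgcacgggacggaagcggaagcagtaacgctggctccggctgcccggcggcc
E2F6, chr2:11466162-11466411, minus strand: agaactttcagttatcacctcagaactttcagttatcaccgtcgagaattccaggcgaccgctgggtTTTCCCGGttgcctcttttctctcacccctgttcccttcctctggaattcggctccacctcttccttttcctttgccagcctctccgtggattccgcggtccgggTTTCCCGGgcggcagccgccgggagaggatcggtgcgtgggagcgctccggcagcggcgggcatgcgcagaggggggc
E2F7, chr12:77065570-77065819, minus strand: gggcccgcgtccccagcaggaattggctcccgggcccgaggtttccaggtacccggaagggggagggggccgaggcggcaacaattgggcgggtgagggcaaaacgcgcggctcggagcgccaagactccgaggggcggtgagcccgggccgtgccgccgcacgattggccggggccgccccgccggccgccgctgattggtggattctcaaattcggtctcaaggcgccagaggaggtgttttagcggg

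The windows of the 3 activators each held at least 2 matches close to the start, and those of E2F4 and E2F7 held 0. E2F1 had 3 matches within 37 bases of its start. Its TTTCGCGG at −37 to −30 and the reverse-strand TTTGCCGC at −33 to −26 overlapped, and TTTGGCGC stood at −20 to −13. E2F2 had TTTCGCGG at −57 to −50 and TTTGGCGC at −42 to −35. E2F3 had a reverse-strand TTTCCCGC at −53 to −46 and TTTCGCGG at −39 to −32, and its second listed start site had 0 matches. E2F6 had TTTCCCGG further upstream, at −183 to −176 and at −78 to −71. Of 22132 such windows of protein-coding genes, 6.54% held at least 1 match and 0.393% at least 2. CCAAT, the box bound by NF-Y, occurred on either strand 4 times each in the windows of E2F7 and E2F3 and 3 times in that of E2F1, where 32.7% of all windows held it and 10.5% held it at least 2 times. The forkhead core TGTTTA was in 0 of the members' windows and in 8.55% of all windows. TTTGAA, the core of the CHR element bound by the MuvB complex, was in that of E2F3 and in 11.0% of all windows. These matches are letters in the reference and say nothing of binding.

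The deposited lists held 82739 and 64675 intervals in FOXD2 replicates 1 and 2, and 77752 and 72796 in Control replicates 1 and 2, on the chromosomes used. Read depth is unknown. Each interval carries the authors' −log10 q, a measure of confidence in the peak at its summit that is comparable only within a list, and the lowest values were between 2.00 and 2.03. Overlapping intervals (1 bp or more) were joined across libraries, which gave 122856 regions. Gained regions are those with an interval in both FOXD2 libraries and in no Control library, and lost regions the reverse. At the FOXD2 gene, an interval inside the gene had −log10 q of 17.1 and 17.7 in the FOXD2 libraries, against 8.29 in Control replicate 1 and none in Control replicate 2, and vector reads can map there. The interval across its lower-coordinate end ran the other way, with 50.4 and 24.4 in the FOXD2 libraries and 64.0 and 54.0 in the Controls (percentiles 91.8 and 77.8 against 92.4 and 90.0). Of 10 colon epithelial marker genes, 8 had a gene-end interval in all 4 libraries, KRT20 lacked one in FOXD2 replicate 1, and VIL1 lacked one in FOXD2 replicate 1 and Control replicate 1. The same held for 2 of 6 fibroblast, 1 of 5 leukocyte, 1 of 4 endothelial and 3 of 4 neural markers, and PTPRC, PECAM1, DCN and GFAP had none in any library. The leukocyte marker was ITGAM, whose start site in the promoter table had an interval in no library. RBFOX3 and SYT1 had one at a start site in all 4, and KDR in all but Control replicate 2. The endothelial marker CDH5 had a gene-end interval in the FOXD2 libraries alone, and the T cell marker CD3E in the Controls alone. Their part in the results below was not tested.

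Each member was given a window of the gene and 100 kb to each side, and the 8 windows held 151 regions. FOXD2 replicates 1 and 2 had an interval in 108 and 92 of them, and Control replicates 1 and 2 in 108 and 100. The intervals in the windows made up 0.135% and 0.152% of the FOXD2 lists and 0.144% and 0.147% of the Control lists. These ranges overlap, so the family as a whole had neither more nor fewer open regions in 1 group beyond the spread of the lists. The regions numbered from 8 at E2F7 to 37 at E2F4, with a median of 18.5 per member against 18 over the 19403 genes with at least 1 region.

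**Figure D1:**
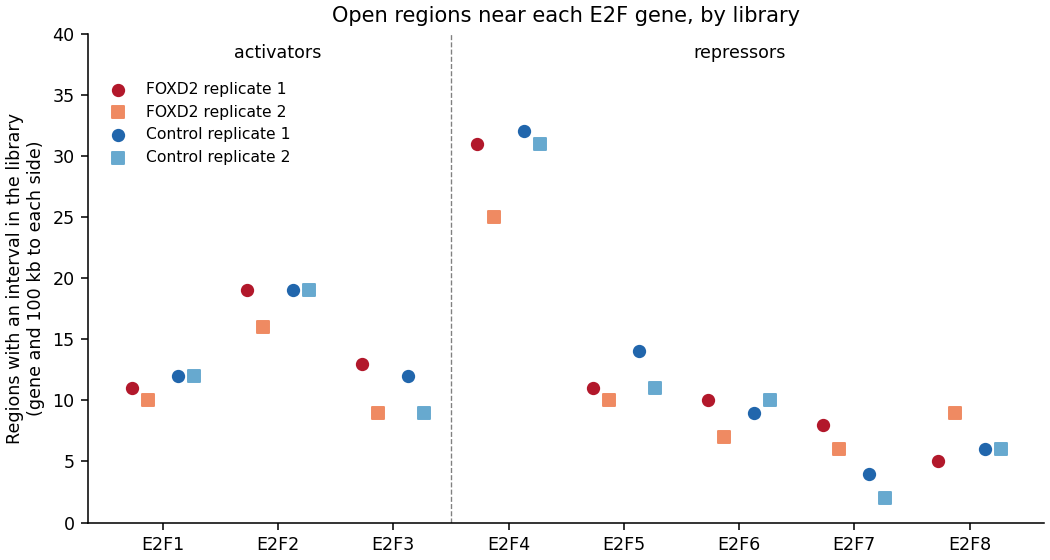
Number of regions with an interval in each library, in the window of each E2F gene (vertical axis, regions per window; horizontal axis, genes with the activators at left and the repressors at right). Each point is 1 library. At E2F7, chosen for its gained regions, the FOXD2 libraries had 8 and 6 regions and the Controls 4 and 2. At the other genes the groups overlapped or shared a value, except at E2F1 with 11 and 10 in the FOXD2 libraries and 12 in each Control.

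Both kinds of difference lay in these windows, with 7 regions gained and 9 lost. Gained regions were 4.64% of the 151 (95% Clopper-Pearson interval 1.88 to 9.32), where 3.89% of all regions were gained. That share includes the E2F7 regions by which the family was chosen, so it is partly set by the choice. Lost regions were 5.96% (2.76 to 11.0), where 3.87% of all regions were lost. Intervals cover counting error only, and regions are not replicates. With 2 libraries against 2, the smallest two-sided exact permutation p is 0.333 and so no such permutation test could reach significance, and none was run. The activators had 3 gained and 3 lost among 60 regions. The repressors had 4 gained and 6 lost among 91, and all 4 gained ones were at E2F7. The other 4 repressors had 0 gained and 6 lost of 83 regions. The 7 members other than E2F7 had 3 gained (2.10%, 0.435 to 6.01) and 9 lost (6.29%, 2.92 to 11.6) of 143. The order of the repressors' counts rests on the settings. They had 5 gained and 3 lost regions with peaks of −log10 q of 5 or more, 6 and 3 with lists of equal length, 4 and 1 when only nearest genes were counted, and 2 and 1 within 20 kb. With the stricter peaks, and with lists of equal length, E2F5 and E2F8 had 1 gained region each.

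These counts move when 1 library is left out, which also relaxes the definition of a difference. Without FOXD2 replicate 1, the activators had 5 gained and 5 lost regions and the repressors 11 and 13. Without FOXD2 replicate 2, the activators had 10 and 4, and the repressors 12 and 10. Without Control replicate 1, the counts were 3 and 8 for the activators and 8 and 9 for the repressors. Without Control replicate 2, they were 3 and 9 for the activators and 6 and 12 for the repressors. Over all regions, the same omissions gave 12822 gained and 10976 lost without FOXD2 replicate 1, and 22597 and 6868 without FOXD2 replicate 2. They gave 7599 and 15793 without Control replicate 1, and 6986 and 19198 without Control replicate 2. Which of the members' gained and lost counts was larger thus changed with the library left out in both classes.

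Every gained or lost region of the family lay away from gene ends. A gene end is the outermost base of a protein-coding gene with 1000 bp to each side, since the gene table gives no strand or exons. Of the 45 regions at gene ends in the windows, 0 were gained and 0 lost, which allows a share of up to 6.67% for each, where 0.975% of all gene-end regions were gained and 2.12% lost. Of the 106 regions away from gene ends, 7 were gained and 9 lost, where 4.4% of all such regions were gained and 4.18% lost. The 7 include the 4 at E2F7 by which the family was chosen. Leaving out FOXD2 replicate 1 gave 2 gained and 2 lost regions at gene ends, and leaving out any other library gave 0 gained and 1 lost there. Away from gene ends the same omissions gave between 9 and 22 gained regions (22 without FOXD2 replicate 2) and between 13 and 20 lost ones (20 without Control replicate 2). Of the 45 gene-end regions, 38 (84.4%, 95% Clopper-Pearson interval 70.5 to 93.5) were in all 4 libraries, where 68.8% of all gene-end regions were. Of the 106 others, 27 (25.5%, 17.5 to 34.9) were in all 4, where 26.1% of all regions away from gene ends were. The gained and lost regions stood at or below percentile 60.5 of their lists, with −log10 q between 3.72 and 13.6 in FOXD2 replicate 1 and between 3.31 and 12.4 in FOXD2 replicate 2 for the gained ones. For the lost ones they lay between 4.71 and 13.2 in Control replicate 1 and between 3.27 and 7.58 in Control replicate 2.

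**Figure D2:**
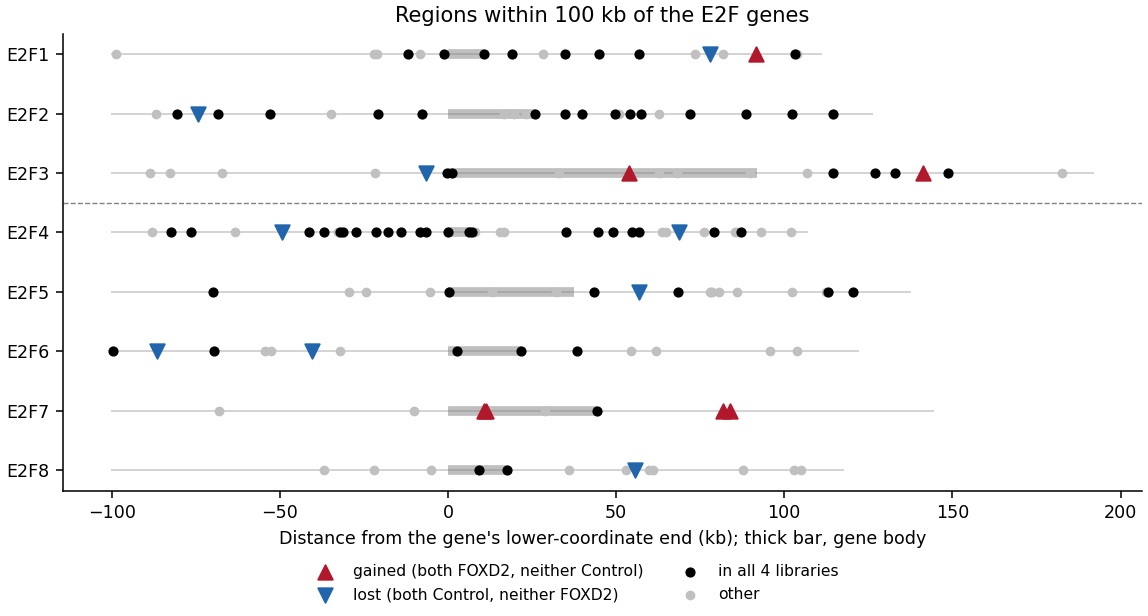
Position of all 151 regions relative to the lower-coordinate end of each E2F gene (horizontal axis, kb; rows, genes with activators above the dashed line and repressors below it). Red triangles are gained, blue triangles lost, black points in all 4 libraries and grey points other regions. Of the 7 gained regions, 4 are at E2F7, and the 9 lost regions are spread over the other 7 genes.

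E2F7, which encodes an atypical repressor that limits E2F1-driven transcription, was the member chosen for its gained regions, and its values are given first. The gene lies at chr12:77021251-77065569 on the minus strand, and no other protein-coding gene overlaps its window. Its window held 8 regions, of which 8 and 6 had an interval in FOXD2 replicates 1 and 2, against 4 and 2 in Control replicates 1 and 2. Intervals covered 3590 and 2519 bp in the FOXD2 libraries, against 1760 and 1337 bp in the Controls. Both FOXD2 values lie above both Control values on either measure. That order follows largely from the choice of the gene, since its gained regions count in the FOXD2 libraries alone. Of the 8 regions 4 were gained and 0 lost, while 1 was in all 4 libraries.

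The 4 gained regions formed 2 close pairs, one inside the gene and one upstream of it. The intragenic pair, 241 bp apart, was at chr12:77031780-77032189 and chr12:77032431-77032860, with midpoints 33.6 and 32.9 kb downstream of the start site. The first had −log10 q of 9.22 and 7.87 in FOXD2 replicates 1 and 2 (percentiles 46.3 and 35.2 of their lists), with no interval in either Control. The second had 13.3 and 12.4 in the FOXD2 libraries (percentiles 59.5 and 55.7), again with no interval in either Control. These are mid-ranking peaks of their lists. The upstream pair, 1807 bp apart, was at chr12:77102703-77103068 and chr12:77104876-77105531, with midpoints at −37.3 and −39.6 kb from the start, where minus means upstream. The nearer had −log10 q of 3.72 and 5.10 (percentiles 5.94 and 14.7) and the farther 13.6 and 5.71 (percentiles 60.5 and 20.0), with no interval in the Controls. Of the 4 values of the upstream pair, 3 rank at or below percentile 20.0 of their lists.

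The remaining 4 regions of E2F7 were neither gained nor lost. The region across the start site, chr12:77065100-77066199, was in all 4 libraries, with −log10 q of 72.6 and 35.9 in the FOXD2 libraries and 76.5 and 66.8 in the Controls. A second intragenic region, chr12:77049856-77050128, had 10.4 in FOXD2 replicate 1 and no interval in FOXD2 replicate 2, against 20.0 and 17.7 in the Controls. Beyond the far end of the gene, chr12:77010882-77011273 had 6.64 in FOXD2 replicate 1 and 19.4 in Control replicate 1 and no interval in the other two libraries. At chr12:76953031-76953548 the values were 11.4 and 9.41 in the FOXD2 libraries and 5.38 in Control replicate 1, with no interval in Control replicate 2. The 3 nearest regions just outside the window on each side were neither gained nor lost. The closest of them stood 121 kb from the gene on the lower-coordinate side and 259 kb on the other.

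**Figure D3:**
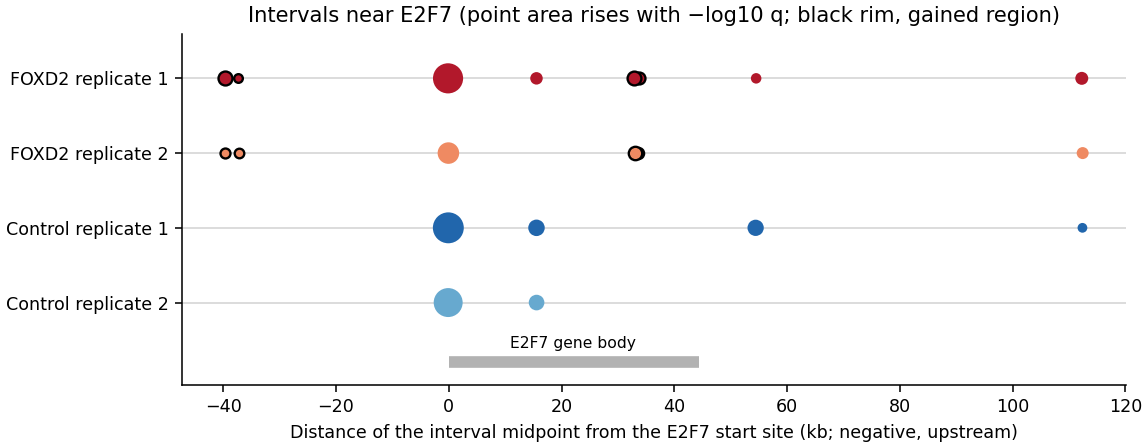
Intervals in the E2F7 window by library (rows; horizontal axis, distance of the interval midpoint from the E2F7 start site in kb, negative upstream). Point area rises with the authors' −log10 q, and a black rim marks a gained region. The gained pairs, at 33.6 and 32.9 kb and at −37.3 and −39.6 kb, appear in both FOXD2 rows and neither Control row, and the start-site interval appears in all 4 rows.

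The number of gained regions at E2F7 was 3 with peaks of −log10 q of 5 or more, 3 with summit windows and 4 with lists of equal length. Leaving out 1 library only relaxes the definition, so the count could not fall below 4 there, and it was 4 or 5. Without FOXD2 replicate 1 there was also 1 lost region. Within 20 kb of the gene only the intragenic pair remained (2 gained). At least 4 gained and no lost regions stood in the windows of 60 of 19403 genes (0.309%). Of the 16927 genes with at least 8 regions, 1 (0.00591%) had at least 50% of them gained, and that gene was E2F7. Both limits were set at E2F7's own values, so this places the gene among all others and is no test. Its window was also sparse, with 8 regions against a median of 18.

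The genes whose windows were most like that of E2F7 were found by the share of regions with an interval in each of the 4 libraries, over 18283 genes with at least 5 regions. By mean absolute difference the first was NANOG (0.0682), a pluripotency factor gene with 10 and 8 of 11 regions in the FOXD2 libraries and 6 and 4 in the Controls. LOC124901693, UBE2D3 and TENT2 followed at 0.0694 each, and ERCC8, KTI12 and ZNF195 tied for the next place at 0.0714. UBE2D3 encodes a ubiquitin-conjugating enzyme and had 3 gained and 0 lost of 9 regions. ERCC8, a nucleotide excision repair gene, had 1 gained and 0 lost of 7. Gained regions were 3 of 11 at NANOG, 2 of 9 at LOC124901693 and at TENT2, 3 of 14 at KTI12 and 0 of 7 at ZNF195. Each of these had 0 lost. The matching used the same interval calls that define gained and lost regions, so it favoured such counts. At LOC124901693, UBE2D3, ERCC8, KTI12 and ZNF195, FOXD2 replicate 1 had an interval in every region, so none there could be lost. With 4 libraries the likeness rests on 4 points that share their lists' depth.

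Among the activators, E2F3 had the most gained regions. E2F3 (chr6:20401879-20493714, plus strand) encodes an activator that is the one often amplified in bladder cancer. Its window had intervals in 13 and 9 of 19 regions in FOXD2 replicates 1 and 2, against 12 and 9 in Control replicates 1 and 2, so the groups overlapped. The gained region inside the gene, chr6:20455260-20456008, had −log10 q of 8.34 and 7.80 in the FOXD2 libraries and no interval in the Controls. A second gained region, chr6:20542935-20543232 with 8.33 and 4.44, lay inside the neighbouring CDKAL1, a tRNA-modifying enzyme gene. The lost region, chr6:20395103-20395547, lay 6332 bp before the gene, with no interval in the FOXD2 libraries and −log10 q of 11.7 and 7.58 in the Controls. It was the differing region nearest to an E2F start site, and it lay outside every protein-coding gene.

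E2F1 (chr20:33675477-33686385, minus strand), the founding activator, had 1 gained and 1 lost region among 18. Intervals were in 11 and 10 of them in the FOXD2 libraries and in 12 and 12 in the Controls, so both FOXD2 values lay below both Control values. The gained and the lost region both lay inside ZNF341, a zinc finger transcription factor gene. The gained one, chr20:33766727-33767162, had −log10 q of 4.94 and 3.31 in the FOXD2 libraries, and the lost one, chr20:33753194-33753508, had 13.2 and 6.95 in the Controls. E2F2 (chr1:23505212-23531233, minus strand), a close relative of E2F1, had 0 gained and 1 lost of 23 regions, with intervals in 19 and 16 in the FOXD2 libraries and 19 and 19 in the Controls. That lost region, chr1:23430752-23431163, lay inside ASAP3, an ARF GTPase-activating protein gene, with 5.19 and 3.27 in the Controls. E2F2 had the largest share of stable sites of the activators, with 15 of 23 regions in all 4 libraries.

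As called with whole lists, the repressors other than E2F7 had 0 gained regions and 1 or 2 lost ones each. E2F4 (chr16:67192155-67198918, plus strand), the main pocket-protein-bound repressor of resting cells, had 2 lost regions, inside PHAF1 (−log10 q 4.71 and 6.80 in the Controls) and inside SLC9A5, a sodium-proton exchanger gene (10.3 and 4.63). Its window holds 15 other protein-coding genes and had intervals in 31 and 25 of 37 regions in the FOXD2 libraries, against 32 and 31 in the Controls. FOXD2 replicate 1 and Control replicate 2 had the same number, and FOXD2 replicate 2 stood below the other libraries. E2F6 (chr2:11444375-11466161, minus strand) had 2 lost of 14 regions, with intervals in 10 and 7 in the FOXD2 libraries and 9 and 10 in the Controls. One lost region lay inside PPIAP60 (8.16 and 6.47 in the Controls), and the other, chr2:11403792-11404099, lay outside genes (4.83 and 7.28).

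E2F5 (chr8:85177154-85214518) had 0 gained and 1 lost of 19 regions, with intervals in 11 and 10 in the FOXD2 libraries and 14 and 11 in the Controls. The lost region, chr8:85233795-85234098, lay 19277 bp from the gene, with −log10 q of 8.11 and 4.43 in the Controls. E2F8 (chr11:19224063-19241655), the second atypical repressor and the nearest relative of E2F7, had 0 gained and 1 lost of 13 regions. The lost one, chr11:19279372-19279780, had 11.2 and 6.16 in the Controls and lay 37717 bp from the gene, outside other genes. Its FOXD2 replicates differed by more, in proportion, than those of any other member, with intervals in 5 and 9 regions in FOXD2 replicates 1 and 2 and in 6 and 6 in the Controls. Without FOXD2 replicate 1, 5 regions at E2F8 counted as gained, against 0 with all 4 libraries.

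Inside the members' own gene bodies, away from the ends, there were 15 regions, of which 3 were gained and 0 lost, where 4.4% and 4.18% of all regions away from gene ends were. The gained ones were the E2F7 pair, on which the choice of the family rested, and the one in E2F3. Of all regions away from gene ends, 26.1% were in all 4 libraries. The activators held 8 of the 15 intragenic regions and 0 were in all 4, while the repressors held 7 and 2 were in all 4. These stable sites, named after their values were seen, lay inside E2F6 (chr2:11446768-11447336, −log10 q 19.9 and 14.1 in the FOXD2 libraries and 21.8 and 18.6 in the Controls) and inside E2F8 (chr11:19232967-19233544, 14.1 and 6.05 against 11.1 and 7.11). The strongest intragenic site of an activator was in E2F2, chr1:23528170-23528591, with −log10 q of 28.0 in FOXD2 replicate 1 and no interval in FOXD2 replicate 2, against 24.7 and 33.7 in Control replicates 1 and 2.

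All 8 members had an open end in all 4 libraries, as did 66.2% of all protein-coding genes. In total 12 regions lay at members' own ends, and all 12 were in all 4 libraries. An interval covered the start site in every library for the 6 members whose strand is known. At E2F5 and E2F8 the covered end was the lower-coordinate and the higher-coordinate one. All 250 printed bases of E2F1, E2F2, E2F3 and E2F7 lay inside that interval in every library, as did at least 184 of those of E2F4 and at least 216 of those of E2F6. These were strong peaks for 7 of the members, at or above percentile 84.4 of −log10 q in every list. E2F2 was the exception, with percentiles 72.9 and 69.2 in the FOXD2 libraries and 78.4 and 72.3 in the Controls.

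**Figure D4:**
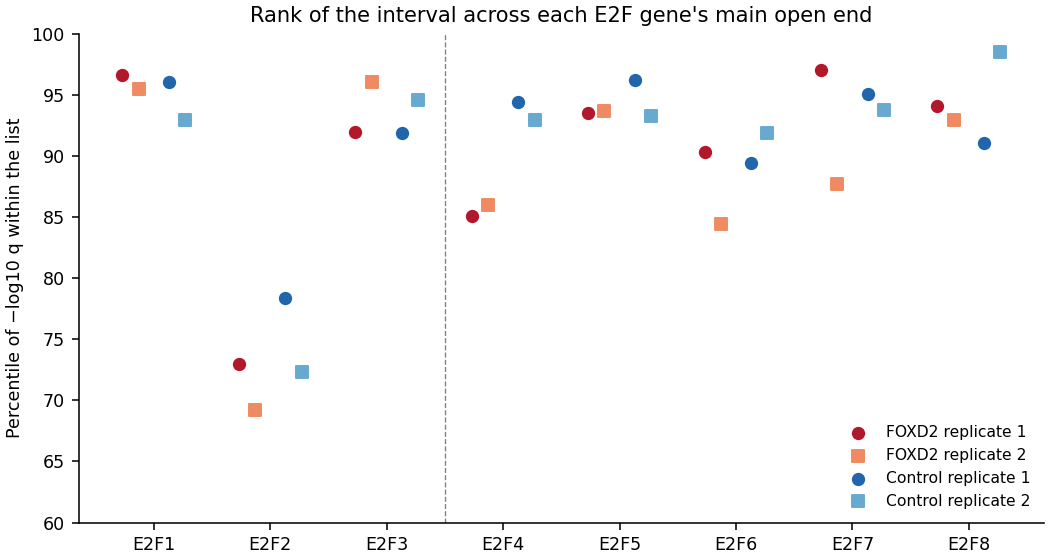
Percentile of −log10 q within its list (vertical axis, shown from 60 to 100) for the interval across the start site of each E2F gene, or across the open end for E2F5 and E2F8. Each point is 1 library. At E2F4 both FOXD2 points lie below both Control points, and at the other 7 genes the groups overlap.

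By percentile, E2F4 was the member whose start-site interval ranked apart in the groups. Its percentiles were 85.1 and 86.0 in FOXD2 replicates 1 and 2, against 94.4 and 92.9 in Control replicates 1 and 2. Among the 12627 gene-end regions in all 4 libraries, 19.2% had both FOXD2 percentiles below both Control ones. A region at the far end of E2F4, chr16:67198058-67198768, which also lies within 1000 bp of ELMO3, ranked the other way, at 72.3 and 70.6 in the FOXD2 libraries and 48.5 and 61.8 in the Controls, where 13.7% of gene-end regions did so. The percentiles of the other 10 own-end regions overlapped between the groups. Unranked values, which are not on one scale across lists, separated more of them. Both FOXD2 values lay below both Control values at 8 of the 12 own-end regions by −log10 q and at 6 by the authors' fold, where 48.5% and 43.1% of gene-end regions in all 4 libraries did so. At E2F7 the percentiles were 97.0 and 87.7 in the FOXD2 libraries and 95.1 and 93.7 in the Controls. At E2F1 they were 96.6 and 95.5 against 96.0 and 92.9, and at E2F6 90.3 and 84.4 against 89.4 and 91.9. E2F3 (92.0 and 96.1 in the FOXD2 libraries, 91.9 and 94.6 in the Controls), E2F5 (93.5 and 93.7, against 96.2 and 93.3) and E2F8 (94.1 and 92.9, against 91.0 and 98.5) also overlapped.

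Of 52 listed partners, regulators and targets of the family, 48 had a gene-end interval in all 4 libraries, where 66.2% of all genes did. None of the 52 gained or lost one (0 and 0), and with 0.466% of all genes gaining and 0.851% losing one, these counts are near the background for a list of this length. The exceptions were CCND2, CDKN1A and ORC1 with none in any library and MGA with one in Control replicate 1 only. MGA is named after its values were seen. The gene table gives outermost ends, and inner start sites are in the promoter table. Of the 44 listed genes in the promoter table, 43 had an interval at a start site in all 4 libraries, CDKN1A, ORC1 and MGA among them. The exception was RB1, whose start site in that table lies inside the gene and had an interval in none of the libraries, although its gene ends had one in all 4. Without Control replicate 2, 1 listed gene end counted as lost. The windows of the 52 genes held 1007 distinct regions, of which 32 (3.18%) were gained and 28 (2.78%) lost, where 3.89% and 3.87% of all regions were.

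The pocket proteins and DP partners (5 genes) had 2 gained (2.33%) and 3 lost (3.49%) of 86 regions, with 1 gained each at RBL1 and RBL2, 1 lost at the retinoblastoma gene RB1 and 2 lost at the DP gene TFDP2. The MuvB complex with MYBL2 and FOXM1 (7 genes) had 2 of each (1.54%) among 130, with LIN52 and LIN54 holding the gained and LIN9 and MYBL2 the lost ones. Cyclins, kinases and inhibitors of the G1 to S step (15 genes) had 18 gained (5.98%) and 8 lost (2.66%) of 301. Cyclin D3 (CCND3) had 3 gained and 0 lost, the kinase gene CDK6 had 3 and 1, and the cyclin genes CCND1 and CCND2 had 1 gained and 2 lost each. The replication genes known as E2F targets (19 genes) had 7 gained (1.92%) and 13 lost (3.56%) of 365, with 2 and 2 at TYMS (thymidylate synthase) and 1 and 2 at the helicase subunit gene MCM6. The Polycomb partners of E2F6 (6 genes) had 3 gained (2.4%) and 2 lost (1.6%) of 125, with 2 gained at PCGF6, 1 of each at RING1 and 1 lost at L3MBTL2. The median gene of the 52 had 0 gained and 0 lost regions, as had the median over all genes, against 0 and 1 for the 8 members.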

How the data were processed

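Each library has its own deposited list of peak intervals. The submitters' processing notes name the hg38 build and MACS2 2.2.7.1, Bowtie2 2.3.4.1, cutadapt 3.4, Picard and bedtools, without their order, role or settings. A Tn5 offset of read ends is not stated in those notes. Each deposited interval carries a fold (a ratio to local background at the summit), a −log10 p, a −log10 q and a score derived from the last. The authors' fold, −log10 q and their percentiles describe peaks within a list. The deposited score and −log10 p were not used. Depth is unknown, so weak sites can be missed.

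Intervals on chromosomes 1 to 22 and X were merged (1 bp overlap) in Python 3.11.15 with pandas 2.3.3. Between 0.208% and 0.251% of each list lay elsewhere and was left out. Merging and calling were tested on simulated lists. Shares carry 95% Clopper-Pearson intervals (scipy 1.17.1), and limits for a count of 0 use 3 counts. Gene positions came from RefSeq GRCh38.p14, whose table has no exons, so exon and intron positions are not given. The 8 members were all named, of the pathway lists those with the most gained or lost regions (ties by alphabet) and those whose gene-end peak was gained, lost or in no library, and the 5 genes most like E2F7 (with ties). One gene that this rule names is not reported here. The members, lists and motifs were chosen with earlier results of these data known. The alternatives were a −log10 q of 5, summit windows of 250 bp to each side, lists of 64675 intervals, a 20 kb window, the nearest gene only, gene ends of 500 bp and leaving out each library. For counts at and away from gene ends, the −log10 q, summit, list-length and left-out-library alternatives were chosen after seeing the data.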

Additional observations from a re-analysis of the deposited data

How the results depend on the processing

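Of the counts by class, 20 kb windows gave 1 gained and 1 lost region for the activators and 2 and 1 for the repressors, and counting regions only for their nearest gene gave 1 and 0 for the activators and 4 and 1 for the repressors. Peaks of −log10 q of 5 or more gave 1 gained region at the activators and 5 gained and 3 lost at the repressors, and lists of equal length 6 and 3 at the repressors, so the larger of the repressors' counts turned under these settings. Leaving out 1 library gave 3 to 10 gained and 4 to 9 lost regions for the activators, 6 to 12 and 9 to 13 for the repressors, and 0 to 1 lost pathway gene ends. Over the genome, gained regions then numbered 6986 to 22597 and lost regions 6868 to 19198, since a single library then decided a group. The cause of the other shifts was not tested, beyond the smaller windows holding fewer regions. Among the counts of single members and of gene ends, 76 alternative values moved by over 1.5 times and 100 did not. Pathway gene ends gained stayed at 0 under all alternatives run. No paired analysis was possible because no result comes from a test. Small counts, the caller's threshold and unknown depth limit every count given.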
